A study of Homo sapiens with 24 samples.

Results

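The genes described here are 56 nuclear genes that encode subunits of complexes I, III and IV of the mitochondrial respiratory chain. They were taken by symbol from a list, by a rule that names no measured value, out of the 60641 gene symbols counted in every library, and all 56 were found and passed the filter on low counts in every comparison. Complex I contributed 36 genes, complex III 9 and complex IV 11.

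The data were read counts per gene from RNA-seq of 24 libraries of 2 human cell lines, A549 (a lung adenocarcinoma line) and HCT116 (a colorectal carcinoma line), in 8 groups of 3 libraries. In both lines the DNA-binding domain (DBD) of the noncoding transcript MSTRG.2513.6 or of MSTRG.4401.1 was knocked out (KO) with CRISPR/Cas9, and in HCT116 also that of MSTRG.34636.7. Unedited cells were sequenced as WT B in A549, as WT B in HCT116 and as WT A in HCT116, and each KO is set here against the WT B of its line, except the KO of MSTRG.34636.7, for which WT A serves as control. No drug or other treatment was given to any group. The labels do not say whether a KO group is a single clone or a pool, nor whether its 3 libraries came from separate cultures, so a p-value here measures the spread between libraries, which may be technical. The deleted transcripts themselves were not analysed here, so the KOs were not checked at their targets.

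Library totals ranged from 25799359 to 102261808 counts, and the members' counts from 32 for NDUFS6 to 26557 for UQCRC1. The line named in the labels was checked with 5 genes high in A549 (AKR1B10, ALDH1A1, ALDH3A1, AKR1C1 and AKR1C2) and 7 genes of intestinal cells or HCT116 (VIL1, CDX1, CDX2, CDH17, LGR5, ASCL2 and CDKN2A). The A549 genes summed to 9120 to 12994 CPM (counts of a gene scaled to the same library total) in the 9 A549 libraries and to 4.84 to 9.59 CPM in 13 of the 15 HCT116 libraries, where up to 2 of the 5 were at 0. In the libraries S8 and S9, both labelled HCT116 MSTRG.2513.6 KO, they summed to 12049 and 12140 CPM, with none at 0. The HCT116 genes summed to 57.7 to 85.0 CPM in those 13 libraries, to 6.57 to 21.95 CPM in A549 and to 7.65 to 8.36 CPM in S8 and S9. Up to 3 of these 7 genes were at 0 in the 13 libraries, up to 3 in S8 and S9 and up to 5 in A549. The upper end in A549 was that of the MSTRG.4401.1 KO, with 15.7 to 21.95 CPM. Thus S8 and S9 went against their labelled line, while S11, the remaining library of that group, went with it. Results that use this group are given with and without S8 and S9.

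Oxidative phosphorylation passes electrons from NADH through complex I to ubiquinone, from ubiquinol through complex III to cytochrome c, and from cytochrome c through complex IV to oxygen, and the protons pumped on the way drive the ATP synthase. Each of these complexes is built from proteins of both genomes: the mitochondrial DNA encodes a few hydrophobic subunits of the catalytic core, and nuclear genes encode the remaining subunits, which are imported. Nuclear subunit genes are known targets of the transcription factors NRF1 and GABP (an ETS factor) and of the coactivator PGC-1α, the product of PPARGC1A. The roles of the members were grouped as follows. The core of complex I (6 genes: NDUFS1, NDUFS3, NDUFS7, NDUFS8, NDUFV1 and NDUFV2) carries the flavin and most iron-sulphur clusters, and its 30 accessory genes encode the proteins packed around it. Complex III was divided into 4 larger proteins (UQCRC1, UQCRC2, the Rieske iron-sulphur protein UQCRFS1 and cytochrome c1, CYC1) and 5 small subunits, and complex IV was represented by 10 COX genes and NDUFA4, which is now counted as a subunit of complex IV.

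The promoters of the members were examined for the motifs of these factors, as a description of sequence that the choice of members did not use. RefSeq promoters (GRCh38.p14), from 250 bases before to 50 after the annotated start, were at hand for 48 of the 56 members. Only the 250 bases before the start were searched, in the members and in all other promoters. The NRF-1 motif CGCANGCG, searched on both strands, was present in 14 of them (29.2%), against 9.17% of all 27305 promoters in the table and 12.7% of the 15345 promoters of protein-coding genes. The ETS motif CCGGAA was present in 18 of 48 (37.5%), against 14.8% of all promoters and 19.6% of those of protein-coding genes, and its longer form CCGGAAGT, whose matches are contained in those of CCGGAA, in 7 of 48 (14.6%), against 3.64% and 5.19%. The 120 bases before the start are printed for 4 members, 1 of complex I, 1 of complex III and 2 of complex IV, that were lower in the A549 MSTRG.4401.1 KO and for 1, NDUFAB1, that did not pass the test there, so that the motifs can be read beside the values that follow. They lie at chr9:122159780-122159899 on the minus strand (NDUFA8), chr19:29213152-29213271 on the minus strand (UQCRFS1), chr2:97645942-97646061 on the plus strand (COX5B), chr19:35648203-35648322 on the plus strand (COX6B1) and chr16:23596317-23596436 on the minus strand (NDUFAB1). Each is written 5′ to 3′ along the gene, and capitals mark the NRF-1 motif or CCGGAA on either strand. All the printed stretches hold a marked motif, so they do not stand for the lower members as a whole. Of the 25 promoters of lower members at hand, 7 held the NRF-1 motif and 9 CCGGAA. Those of NDUFA2 and UQCRC2, for example, held neither.
NDUFA8: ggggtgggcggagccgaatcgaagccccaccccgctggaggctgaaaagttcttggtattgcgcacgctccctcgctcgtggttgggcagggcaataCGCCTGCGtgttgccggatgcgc
UQCRFS1: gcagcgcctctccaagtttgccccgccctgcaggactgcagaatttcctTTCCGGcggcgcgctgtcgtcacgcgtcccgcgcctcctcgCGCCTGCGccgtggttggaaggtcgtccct
COX5B: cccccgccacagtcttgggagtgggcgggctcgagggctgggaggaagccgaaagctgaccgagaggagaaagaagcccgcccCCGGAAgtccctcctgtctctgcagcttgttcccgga
COX6B1: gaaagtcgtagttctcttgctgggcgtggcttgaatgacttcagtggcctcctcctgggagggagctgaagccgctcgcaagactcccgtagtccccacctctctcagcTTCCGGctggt
NDUFAB1: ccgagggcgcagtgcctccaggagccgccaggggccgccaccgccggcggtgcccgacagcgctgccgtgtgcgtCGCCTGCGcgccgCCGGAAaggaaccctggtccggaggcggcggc

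In unedited cells the members were expressed over a wide range. On the scale of CPM per kilobase of the annotated MANE transcript, the only scale on which genes are set against each other here, the median member of A549 WT B was at 46.6, the lowest (NDUFA5, a small accessory subunit) at 4.38 and the highest (COX6B1, a subunit on the intermembrane side of complex IV) at 248. In HCT116 WT B the median was 46.7, the lowest was NDUFS6 at 3.48 and the highest COX4I1 at 244. Several complex IV genes led in both lines: COX6A1 stood at 233 and 221 and COX8A at 225 and 222 CPM per kilobase, in A549 and HCT116 respectively. Levels of the members at the ends of this order rest on the annotated transcript length, since UQCRB, with 4.93 and 5.62 CPM per kilobase, has a long annotated transcript.

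Summed over the 56 genes, the level was nearly the same in A549 WT B and its MSTRG.2513.6 KO and lower in its MSTRG.4401.1 KO. The sum was 3670, 3524 and 3238 CPM in the 3 A549 WT B libraries, 3746, 3507 and 3172 CPM in the MSTRG.2513.6 KO and 3034, 2251 and 2726 CPM in the MSTRG.4401.1 KO. All 3 MSTRG.4401.1 KO libraries lay below all other A549 libraries, and with 3 libraries against 3 an exact two-sided permutation test cannot go below 0.1. These 3 libraries also stood apart in depth and composition: they had the smallest totals of all 24, 25799359 to 33205007 counts, and their 10 most abundant genes took 16.8%, 23.5% and 21.2% of the counts, against 9.38% to 13.4% in A549 WT B. Genes of the mitochondrial DNA took 3.50%, 7.87% and 6.93%, against 1.96% to 2.37% in WT B, and S24, with the lowest sum of the members, was highest in both shares. The part of depth and composition in the members' difference was not tested. In HCT116 WT B the sum was 3604, 3785 and 3788 CPM and in the MSTRG.4401.1 KO 3874, 3896 and 3742 CPM, which overlap. In the MSTRG.34636.7 KO it was 3491, 3474 and 3661 CPM, inside the wide range of its control, HCT116 WT A, with 2675, 3147 and 4051 CPM. Under the label HCT116 MSTRG.2513.6 KO the sum was 3195 CPM in S11 and 3646 and 3473 CPM in S8 and S9.

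**Figure D1:**
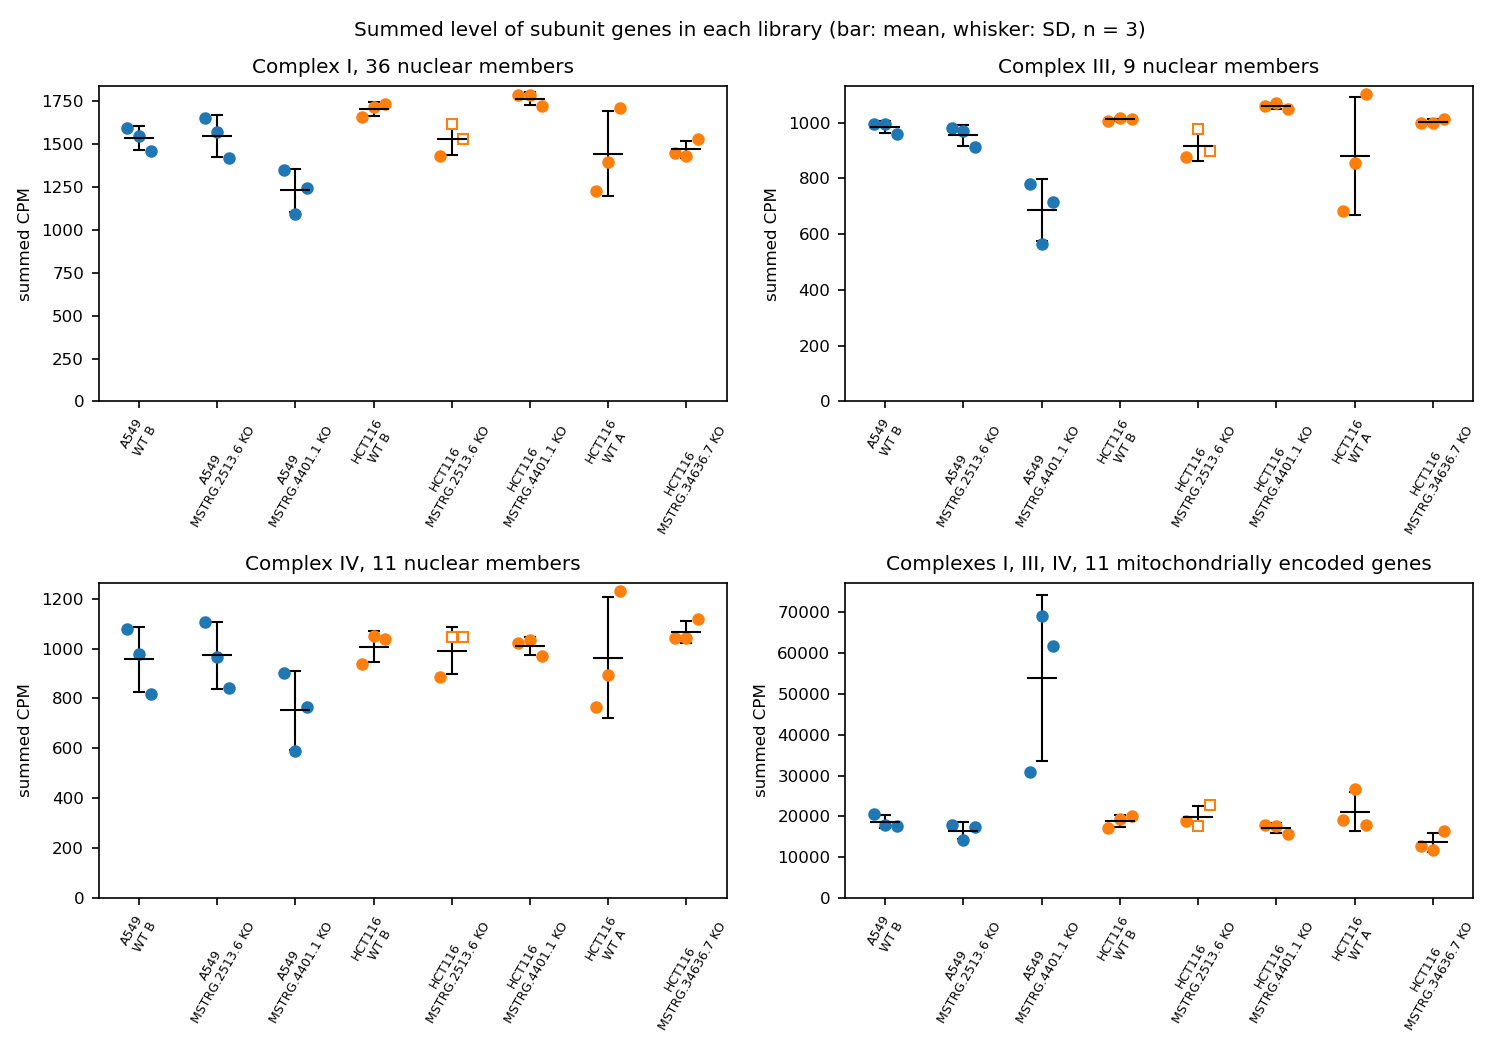
Summed CPM (linear axes from 0) of the members of complex I, III and IV and of the 11 mitochondrially encoded genes in each of the 24 libraries, by group, with 1 point per library, the mean as a bar and the SD (n = 3) as a whisker. Blue marks A549, orange HCT116 and open squares S8 and S9. The A549 MSTRG.4401.1 KO libraries, at 566 to 781 CPM for complex III, lie below the A549 WT B libraries, at 959 to 996 CPM, and above them for the mitochondrially encoded genes.

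The first comparison asks whether the KO of the MSTRG.4401.1 DBD was accompanied by another level of these genes in A549. It was: 31 of the 56 members were lower in the KO than in WT B and none was higher, at a false discovery rate (FDR) under 0.1 by the quasi-likelihood test of edgeR, Benjamini-Hochberg adjusted over all 24979 genes tested. Of all genes tested, 22.4% were called lower and 21.3% higher in this comparison, against 55.4% and 0% of the members. No member was higher at an unadjusted p under 0.05. DESeq2 called 39 lower and none higher, against 20.5% and 12.2% of all genes. The study's fold criterion, FDR under 0.1 together with a log2 fold change beyond 1 in size, was met by 2 members, both lower, and by 15.4% of all genes. The median log2 fold change of the members was -0.46, a median change of -27.3%, against 0.12 for all genes, and 53 of the 56 fitted values were negative, from -1.14 to 0.09. Of the 31 lower members, 29 were short of the fold criterion. Since these are bulk libraries, fewer cells that express a gene and less of its RNA per cell cannot be told apart.

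All roles took part, with the larger proteins of complex III at the front. The 4 genes of that group all fell, with a median log2 fold change of -0.67. Of the complex I core 4 of 6 were lower (median -0.45), of the accessory genes 14 of 30 (median -0.46), of the small complex III subunits 3 of 5 (median -0.43) and of complex IV 6 of 11 (median -0.42). No test of a difference between these groups was made.

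UQCRC1, a core protein of complex III on the matrix side (chromosome 3, 48599002 to 48610976, GRCh38), had 130.9, 95.3 and 122.8 CPM in the KO and 182.1, 196.9 and 200.8 CPM in WT B. The highest KO library lay well below the lowest WT library, and the log2 fold change was -0.81 ± 0.13 (SE, n = 3 per group, edgeR adjusted p = 0.0033). UQCRFS1, the Rieske protein that takes the first electron from ubiquinol (chromosome 19, 29205320 to 29213151), had 163.6, 115.6 and 154.5 CPM in the KO and 231.4, 232.1 and 228.1 CPM in WT B. Its WT values were tight, the groups did not overlap, and its log2 fold change was -0.75 (edgeR adjusted p = 0.0060). UQCRC2, the partner of UQCRC1 in the core (chromosome 16, 21953288 to 21983660), had 147.9, 121.9 and 128.7 CPM against 178.2, 192.8 and 197.0 CPM, also without overlap, and fell by 0.59 on the log2 scale (SE 0.10, edgeR adjusted p = 0.0042). CYC1, which passes electrons to cytochrome c, had 149.0, 110.7 and 157.9 CPM against 180.8, 167.7 and 162.9 CPM and its groups did not overlap, by a small margin.

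Among the complex I genes, NDUFA8, an accessory subunit with twin cysteine motifs on the intermembrane side (chromosome 9, 122144058 to 122159779), had 18.2, 11.4 and 16.2 CPM in the KO and 30.3, 30.8 and 32.2 CPM in WT B. The WT values were tight, a wide gap lay between the groups, and the log2 fold change was -1.11 ± 0.17 (SE, edgeR adjusted p = 0.0028). NDUFV2, a core subunit that holds an iron-sulphur cluster beside the flavin (chromosome 18, 9102630 to 9134345), had the most negative fitted value of the members, -1.14 ± 0.41 (SE, edgeR adjusted p = 0.060). Its CPM were 13.01, 4.42 and 6.94 in the KO and 21.09, 18.99 and 10.03 in WT B, so the groups overlapped at the WT library S22. NDUFS1, the largest core subunit, had 158.9, 125.0 and 136.6 CPM against 182.3, 197.0 and 204.2 CPM, with no overlap. NDUFS3, a core subunit near the ubiquinone site, had 47.2, 36.8 and 40.0 CPM against 57.6, 58.9 and 63.9 CPM, again with no overlap. NDUFV1, which binds NADH and the flavin, differed little: it had 100.5, 101.9 and 106.7 CPM in the KO and 113.6, 111.8 and 115.8 CPM in WT B, and its log2 fold change of -0.22 ± 0.10 did not pass (edgeR adjusted p = 0.12), although the groups did not overlap in CPM. NDUFA10, an accessory subunit, was level, at 111.2, 106.8 and 106.6 CPM against 105.3, 113.5 and 109.5 CPM.

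Complex IV gave the same direction with more scatter in the controls. COX6B1 had 106.7, 73.7 and 84.6 CPM in the KO and 132.9, 128.6 and 102.2 CPM in WT B, so that the highest KO library passed the lowest WT library. COX6A1 had 99.6, 67.8 and 101.5 CPM against 132.0, 122.4 and 121.0 CPM, with no overlap. COX5B had 68.6, 49.5 and 58.7 CPM against 88.4, 68.5 and 65.1 CPM, with overlap. COX4I1, the largest nuclear-encoded subunit of complex IV, had 120.3, 95.5 and 110.5 CPM in the KO against 163.3, 125.6 and 84.6 CPM in WT B. Its controls spread more widely than the groups differed, and its log2 fold change was -0.29 ± 0.24 (edgeR adjusted p = 0.37).

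**Figure D2:**
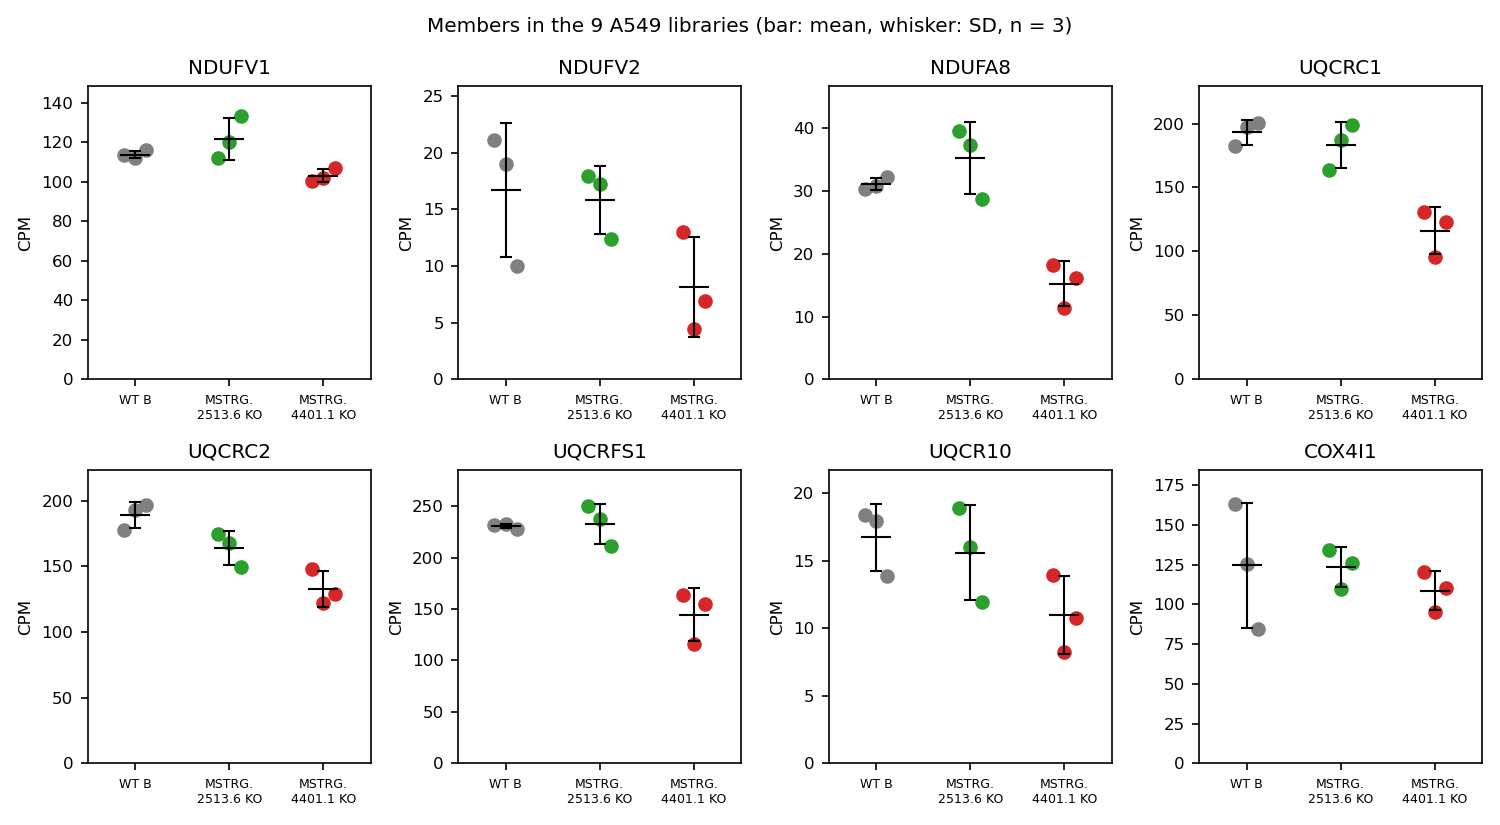
CPM of 8 members in the 9 A549 libraries (linear axes from 0), with 1 point per library, the group mean as a bar and the SD (n = 3) as a whisker. UQCRC1 lies at 95.3 to 130.9 CPM in the MSTRG.4401.1 KO and at 182.1 to 200.8 CPM in WT B, while NDUFV2, UQCR10 and COX4I1 overlap between these groups.

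In CPM, 19 of the 56 members had all 3 KO libraries below all 3 WT libraries and none had all above, while of all genes 20% were so separated downward and 28.0% upward. Among the KO libraries S24 was lowest for 49 members, and among the WT libraries S22 was lowest for 40, COX4I1 and NDUFV2 included. Leaving out 1 library at a time gave 12 to 35 lower members: 12 without the WT library S20, 14 without the WT library S21 and 14 without the KO library S24. Of all genes 17.41%, 15.05% and 18.03% were lower in those 3 fits, against 21.4%, 25% and 25% of the members, a smaller gap than with all 6 libraries. A set of 12 members was called lower in each of the 12 alternative fits, those 6 included: NDUFA2, NDUFA8, NDUFA9, NDUFB3, NDUFB5, NDUFB11, NDUFC2, NDUFS1, NDUFS3, UQCRC1, UQCRC2 and UQCRFS1. Scaling mattered as well. With upper-quartile in place of TMM normalisation (which set how libraries are scaled to each other) 16 members (28.6%) were lower, all 16 among the 31, against 15.6% of all genes, and the share of all calls that were higher moved from 48.8% to 65.0%. The median of all genes moved from 0.12 to 0.28, and the median of the members minus it was -0.575 and -0.576 on the log2 scale.

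Other genes of the pathway and 2 lists outside it were read beside the members. The 11 mitochondrially encoded subunits of complexes I, III and IV went the other way: all 11 were higher, 10 of them past the fold criterion, with a median log2 fold change of 1.46. MT-ND4 among them had only 0.69, 0.93 and 1.03 CPM in the KO and 0.39, 0.39 and 0.55 CPM in WT B. MT-ND4L had 4498.6, 10555.5 and 8231.7 CPM in the KO, and how reads were assigned between these genes is not known. The summed level of the 11 genes was 10.1, 30.7 and 22.6 times that of the members in the 3 KO libraries and 5.62, 5.07 and 5.44 times in WT B. MT-CO1, the catalytic subunit of complex IV, stood at 13596, 28076 and 29303 CPM in the KO against 8140, 8767 and 8819 CPM in WT B. With the reads of all genes of the mitochondrial DNA out of the total, the summed level of the members was 0.799 of WT B. With them in it, it was 0.768. The nuclear genes of the neighbouring machinery were lower: complex II in 4 of 4 genes (median -0.68), cytochrome c (CYCS, -0.38) and the ATP synthase in 8 of 16 (median -0.53). Assembly factors were lower in 8 of 16 for complex I, 3 of 6 for complex III and 14 of 25 for complex IV, of which 2 others were higher; SCO2, a copper chaperone of complex IV, and COA3 passed the fold criterion at -1.33 and -1.18 (edgeR adjusted p = 0.020 and 0.00034).

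The same direction was also seen outside the respiratory chain. Proteasome core genes were lower in 14 of 14 (median -0.62) and cytosolic ribosomal protein genes in 55 of 77 (median -0.52). Protein-coding genes as a whole were called lower in 36.4% and higher in 15.4% (median -0.19, n = 14350), and the 368 protein-coding genes whose MANE transcript is no longer than the members' median of 740.5 bases were called lower in 40.8% and higher in 5.71% (median -0.41). The members' median of -0.46 lay close to that of these short genes. The part of transcript length in the members' difference was not tested.

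**Figure D3:**
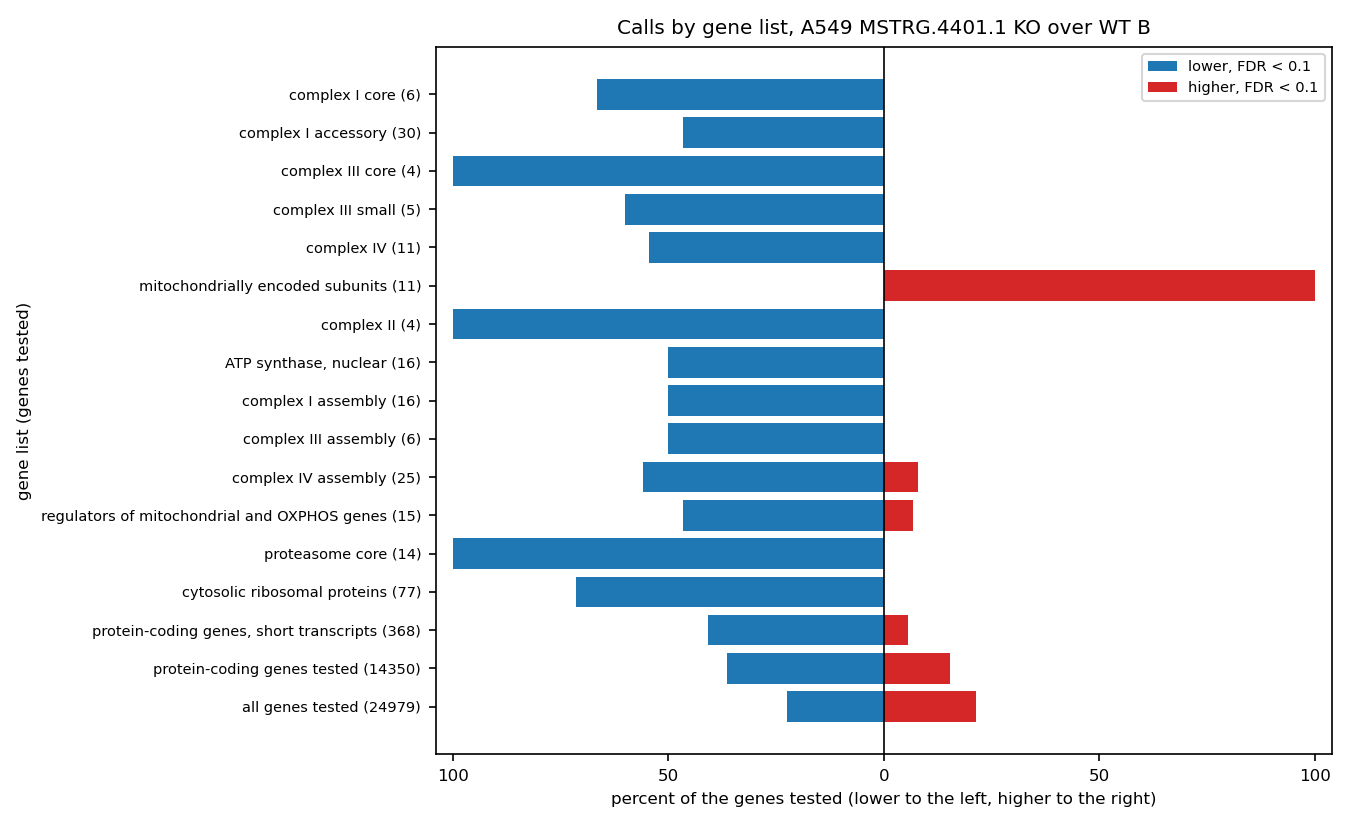
Percent of the genes tested in each list that were called lower (to the left, blue) or higher (to the right, red) at FDR under 0.1 in the A549 MSTRG.4401.1 KO against WT B, with the number of genes tested in parentheses. The bar of the 11 mitochondrially encoded subunits reaches 100% to the right, while the nuclear subunit lists have bars only to the left.

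Of the regulators, PPARGC1A had the largest difference. Its counts were 527, 403 and 277 in the A549 MSTRG.4401.1 KO, 101, 89 and 69 in WT B and 0 in all 3 libraries of the MSTRG.2513.6 KO. The MSTRG.4401.1 KO was above WT B by 3.02 ± 0.21 on the log2 scale (SE, edgeR adjusted p = 8.9e-05), while the MSTRG.2513.6 KO was at least 29.8-fold lower than WT B, computed against 3 counts per library. TFAM packages mitochondrial DNA and activates its transcription. It had 65.8, 49.9 and 58.5 CPM in the MSTRG.4401.1 KO against 77.9, 94.1 and 84.8 CPM in WT B, without overlap. TFAM fell by 0.64 on the log2 scale (edgeR adjusted p = 0.0069). NRF1 was not called (0.16 ± 0.11, edgeR adjusted p = 0.26). Of the 15 regulators 7 were lower and 1 higher. The NRF-1 motif was present in 7 of the 25 promoters of lower members and in 7 of the 23 promoters of the others, and CCGGAA in 9 of 25 and 9 of 23.

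In the A549 MSTRG.2513.6 KO no member was called, in either direction, where 2.77% of 25666 genes were higher, 3.19% lower and 2.92% past the fold criterion. No member had an unadjusted p under 0.05, which 4300 of the 25666 genes had. DESeq2 called none, against 3.79% of all genes higher and 3.82% lower. The median log2 fold change was -0.00, 29 of 56 fitted values were negative and the median SE was 0.18. The most negative value was that of NDUFS6, -1.09 ± 0.60 (edgeR adjusted p = 0.42), a gene with 1.71, 1.29 and 0.79 CPM in the KO and 5.08, 1.77 and 1.08 CPM in WT B, where the library S20 stood apart. UQCRC1 had 163.5, 187.5 and 198.9 CPM and UQCRFS1 249.9, 237.1 and 211.7 CPM, both overlapping WT B. PPARGC1A was at 0 counts in this KO, and the members' sum was 0.999 of WT B.

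The A549 KOs were also compared with each other. In MSTRG.4401.1 KO against MSTRG.2513.6 KO 29 members were lower and none higher, where 19.8% of 25161 genes were lower, 17.4% higher and 16.6% past the fold criterion, which 2 members met. No member was higher at an unadjusted p under 0.05 or by DESeq2. These KO libraries are the same as in the comparisons with WT B. The median was -0.49, and the most negative called members were NDUFA8 (-1.35 ± 0.22, edgeR adjusted p = 0.0035), NDUFV2 (-1.11 ± 0.36, edgeR adjusted p = 0.050) and UQCRFS1 (-0.83 ± 0.17, edgeR adjusted p = 0.0099). Complex III again had its 4 larger proteins lower, and 5 of 6 complex I core genes were lower. Fewer members were lower without the MSTRG.2513.6 KO library S17 (15) or S18 (13) or without the MSTRG.4401.1 KO library S24 (14), where 14.6%, 12.8% and 13.9% of all genes were lower. With no library left out, 51.8% of the members and 32.0% of the protein-coding genes were lower. So were 41 of 77 cytosolic ribosomal protein genes and 13 of 14 proteasome core genes.

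The same MSTRG.4401.1 KO in HCT116 gave another picture. None of the members was lower and 2 were higher, against 8.72% of 26615 genes lower and 7.57% higher by edgeR. At an unadjusted p under 0.05, 2 were lower and 8 higher, where 6836 of the 26615 genes had such a p in either direction. DESeq2 called 1 member lower and 2 higher, against 11.5% and 9.42% of all genes. None met the fold criterion, which 2.62% of all genes met. NDUFS7, a core subunit with an iron-sulphur cluster next to the ubiquinone site, had 54.3, 49.4 and 53.1 CPM in the KO and 44.2, 40.5 and 42.3 CPM in WT B, without overlap, and a log2 fold change of 0.29 ± 0.06 (SE, edgeR adjusted p = 0.018). CYC1 had 258.6, 239.2 and 248.5 CPM against 224.0, 226.0 and 217.2 CPM, also without overlap, and 0.15 ± 0.05 (edgeR adjusted p = 0.096). The 54 members that were not called lay between -0.42 and 0.21, with a median over all 56 of 0.02 and a median SE of 0.08. UQCRC1 had 215.0, 220.2 and 232.2 CPM against 214.7, 201.7 and 200.3 CPM, the lowest KO library just above the highest WT library, and NDUFA8 41.9, 39.5 and 41.3 CPM against 35.6, 37.5 and 34.8 CPM. Here none of the 11 mitochondrially encoded genes was higher and 1 was lower, and their sum was 4.19 to 4.65 times that of the members, against 4.76 to 5.29 times in WT B. The calls moved with the settings. With upper-quartile normalisation 7 members were higher, against 9.43% of all genes, and with all HCT116 libraries but S8 and S9 in one fit none. With WT A as the control 11 were higher and 2 lower, against 9.18% and 9.71% of all genes. Without the WT B library S12, 1 was higher and 4 were lower, against 4.86% and 5.60%.

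The difference between the lines was tested as an interaction, the KO effect in A549 minus that in HCT116. For 21 members (37.5%) it was negative at FDR under 0.1 and for none positive, where 15.4% of 30134 genes were negative, 11.6% positive and 11.4% past the fold criterion. Of the protein-coding genes 27.9% were negative. The cytosolic ribosomal protein genes were negative in 39 of 77 (median -0.57) and the proteasome core genes in 14 of 14 (median -0.70). No member was positive at an unadjusted p under 0.05 or by DESeq2, which called 11.3% of all genes positive. NDUFA8 had the most negative difference, -1.30 ± 0.21 (edgeR adjusted p = 0.0012), then UQCRC1 with -0.94 ± 0.16 (edgeR adjusted p = 0.0016) and UQCR10, a small complex III subunit, with -0.91 ± 0.26 (edgeR adjusted p = 0.030). Of the roles, the larger complex III proteins were negative in 4 of 4, the complex I core in 5 of 6, the accessory genes in 10 of 30, the small complex III subunits in 1 of 5 and complex IV in 1 of 11. The median difference was -0.49, and leaving out 1 library at a time gave 12 to 41 negative members: 12 without the HCT116 WT B library S12, 13 without the HCT116 KO library S10 or the A549 WT B library S20, 32 without the A549 KO library S23 and 41 without the A549 WT B library S22. Of all genes 12.7% were negative in the first of these fits and 17.1% in the last. Only NDUFA8 passed the fold criterion.

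**Figure D4:**
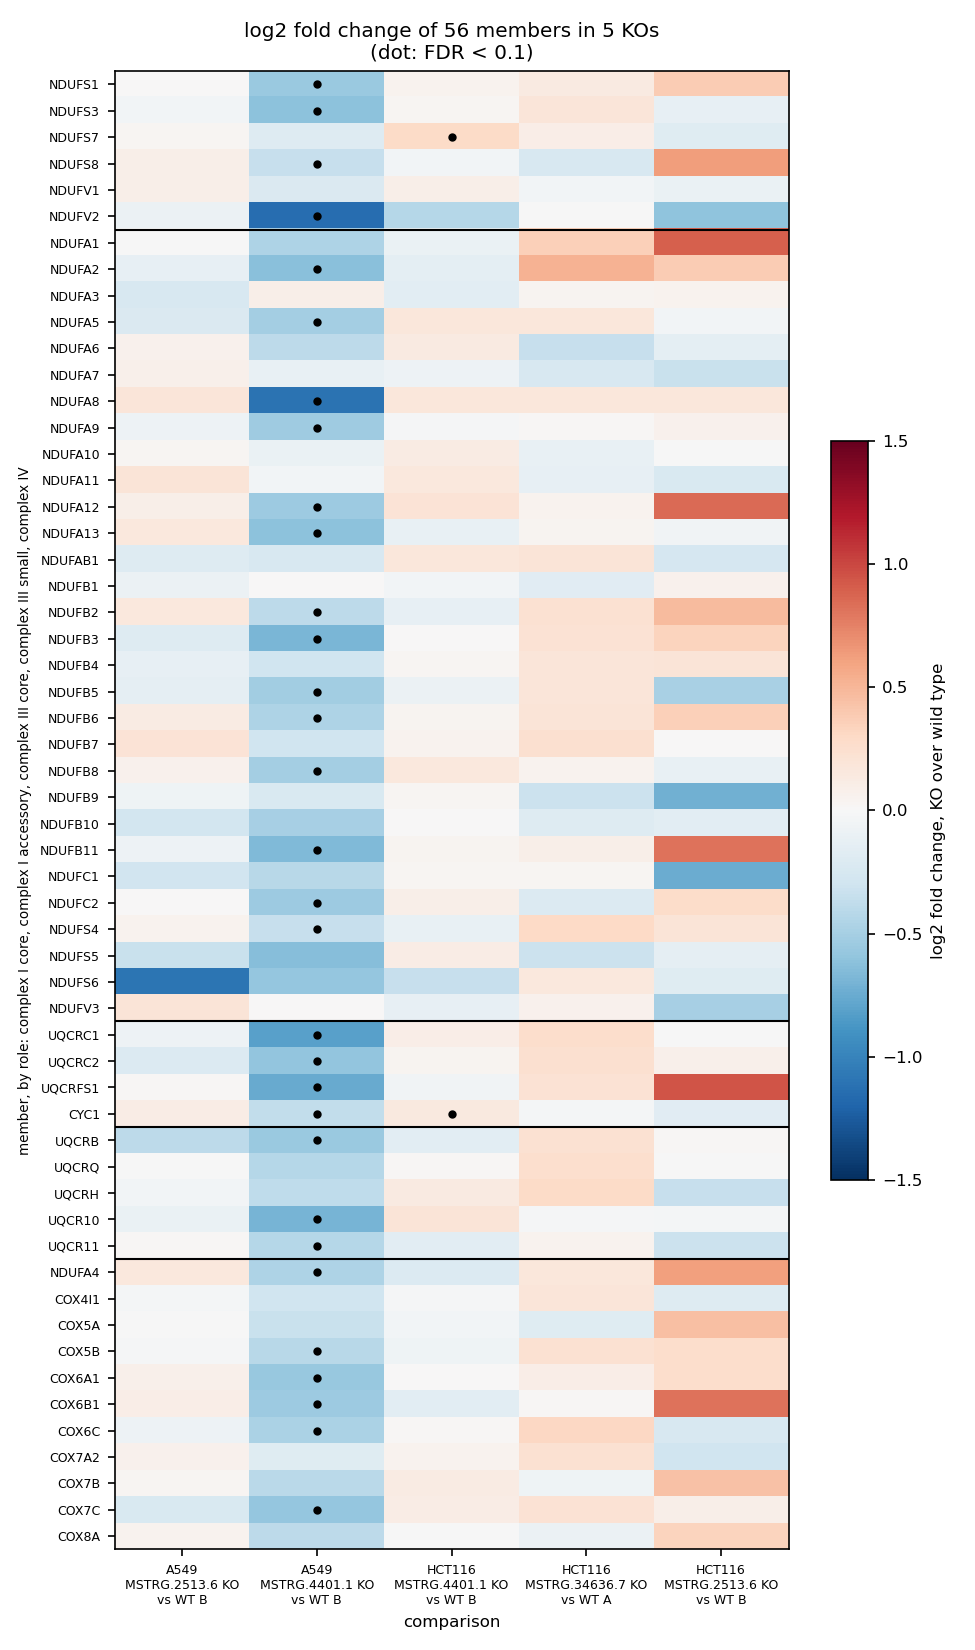
Log2 fold change of each of the 56 members (a row each, ordered by role) in the 5 KO comparisons against the WT group of the same line (a column each), as colour from blue (lower) to red (higher), with a dot where FDR was under 0.1. The A549 MSTRG.4401.1 KO column holds 31 dots, all on blue cells, the HCT116 MSTRG.4401.1 KO column 2, and the other columns none.

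For the MSTRG.2513.6 KO as labelled in HCT116 the values depend on which of its libraries are used. With all 3, no member was called, against 0.792% of 26374 genes higher, 0.629% lower and 0.933% past the fold criterion, and the members' median was 0.00. An unadjusted p under 0.05 was found for 5 members and for 5456 of the 26374 genes. DESeq2 called 3 members lower, against 4.46% of all genes. UQCRFS1 shows the split: S8 and S9 had 231.9 and 206.5 CPM and S11 had 80.4 CPM, where A549 WT B had 228.1 to 232.1 CPM and HCT116 WT B 106.9 to 112.3 CPM. COX6B1 had 138.7 and 137.6 CPM in S8 and S9, 52.6 CPM in S11 and 67.6 to 79.8 CPM in HCT116 WT B. Over the 56 members the median absolute log2 difference from A549 WT B was 0.13 for S8 and 0.12 for S9, and from HCT116 WT B 0.30 and 0.41; for S11 these were 0.39 and 0.23. Without S8 and S9, S11 alone against WT B (the lone library assumed to vary like the WT libraries) gave 25 members lower and none higher, with a median of -0.32, against 15.9% of all genes lower and 12.7% higher. Without S11 the group gave 24 members higher and 12 lower, against 30.2% and 32.4% of all genes, so that the lower members, 21.4%, were fewer than the share of all genes.

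In the HCT116 MSTRG.34636.7 KO no member was called against WT A, where 1.18% of 28816 genes were higher, 0.972% lower and 1.34% past the fold criterion. DESeq2 called none, against 2.99% of all genes higher and 2.27% lower. An unadjusted p under 0.05 was found for 4319 of the 28816 genes and for 1 member, NDUFA2. It is a small accessory subunit, and it had 23.7, 22.8 and 25.3 CPM in the KO and 11.94, 18.93 and 19.01 CPM in WT A, without overlap (0.52 ± 0.20, edgeR adjusted p = 0.28). The median of the members was 0.10, and the range -0.35 to 0.52. WT A itself was uneven: of its libraries 1A was lowest for 44 members and 3A highest for 51, such as UQCRC2 with 128.2, 161.0 and 212.9 CPM against 198.2, 208.1 and 192.7 CPM in the KO.

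The unedited HCT116 groups, WT A and WT B, differed from each other, so the choice of control bears on these genes. In WT A against WT B 2 members were higher and 6 lower, where 5.56% of 27280 genes were higher, 6.71% lower and 7.06% past the fold criterion, met by 4 members. NDUFV3, a small subunit of the NADH-oxidising module (chromosome 21, 42879644 to 42913304), had 21.7, 17.8 and 33.6 CPM in WT A and 63.6, 58.2 and 61.6 CPM in WT B (-1.33 ± 0.24, edgeR adjusted p = 0.013). NDUFA3, an accessory subunit, had 4.7, 8.6 and 9.0 CPM in WT A and 16.2, 21.8 and 17.3 CPM in WT B (-1.32 ± 0.27, edgeR adjusted p = 0.020). NDUFA13, also known as GRIM-19, had 21.6, 42.9 and 10.8 CPM in WT A and 55.5, 57.8 and 69.8 CPM in WT B (-1.32 ± 0.40, edgeR adjusted p = 0.095). In all of these the groups were apart.

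Upward, NDUFS6, a zinc-binding accessory subunit, had 4.1, 4.2 and 4.9 CPM in WT A against 1.2, 2.2 and 2.0 CPM in WT B (1.27 ± 0.29, edgeR adjusted p = 0.031), and NDUFV2 had 46.8, 60.7 and 74.8 CPM against 19.5, 35.6 and 35.7 CPM (1.00 ± 0.28, edgeR adjusted p = 0.070). The MSTRG.34636.7 KO sat with WT A for these genes: it had 25.1, 26.9 and 25.6 CPM of NDUFV3, 6.6, 7.1 and 9.2 CPM of NDUFA3 and 57.2, 63.7 and 62.6 CPM of NDUFV2. Set against WT B in place of WT A, that KO gave 10 members higher (17.9%) and 21 lower (37.5%), against 22.98% and 22.88% of all genes. Without the WT A library 3A, WT A against WT B gave 1 member higher and 21 lower, against 6.81% and 9.17% of all genes, and without the WT B library S13 it gave 1 higher and 3 lower, against 2.85% and 3.79%. The labels do not say what set WT A and WT B apart, so a difference between unedited cells and one between the A and B series of libraries cannot be told apart.

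The 2 lines were compared in their unedited WT B groups. In A549 against HCT116 22 members were higher and 11 lower, where 31.2% of 27882 genes were higher, 31.7% lower and 35.7% past the fold criterion, met by 2 members. The members' share of fold calls was thus far below that of all genes. The same held for the proteasome core genes, with none of 14, and for the cytosolic ribosomal protein genes, with 2 higher and 1 lower of 77. The members' median was 0.11. UQCRFS1 differed most: A549 had 231.4, 232.1 and 228.1 CPM and HCT116 112.3, 106.9 and 108.3 CPM (1.34 ± 0.06, edgeR adjusted p = 2.0e-06). NDUFB11, an accessory subunit encoded on chromosome X (47142071 to 47145466), had 71.3, 66.0 and 54.5 CPM in A549 and 32.7, 37.8 and 40.3 CPM in HCT116 (1.06 ± 0.15, edgeR adjusted p = 0.00064). NDUFA12, an accessory subunit near the core, had 18.3, 16.6 and 17.1 CPM against 8.3, 11.9 and 11.5 CPM (0.98 ± 0.17, edgeR adjusted p = 0.0018). In each of these genes all A549 libraries were above all HCT116 libraries.

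Lower in A549 were NDUFB9, with 37.8, 31.4 and 26.4 CPM against 70.5, 74.1 and 76.0 CPM (-0.93 ± 0.16, edgeR adjusted p = 0.0017), NDUFV3 (-0.71 ± 0.08, edgeR adjusted p = 0.00014) and NDUFB5 (-0.68 ± 0.08, edgeR adjusted p = 0.00021). By role, the larger complex III proteins were higher in 3 of 4 and lower in none, complex IV higher in 5 and lower in 1 of 11, the small complex III subunits higher in none and lower in 2 of 5, and complex I higher in 14 and lower in 8 of 36. Scaling shifts this comparison: the summed CPM in A549 was 0.933 of that in HCT116, and 1.05 of it with TMM-scaled library sizes. In plain CPM 11 members were above and 24 below HCT116 in every library. Of all genes 23.9% were so separated upward and 42.1% downward.

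**Figure D5:**
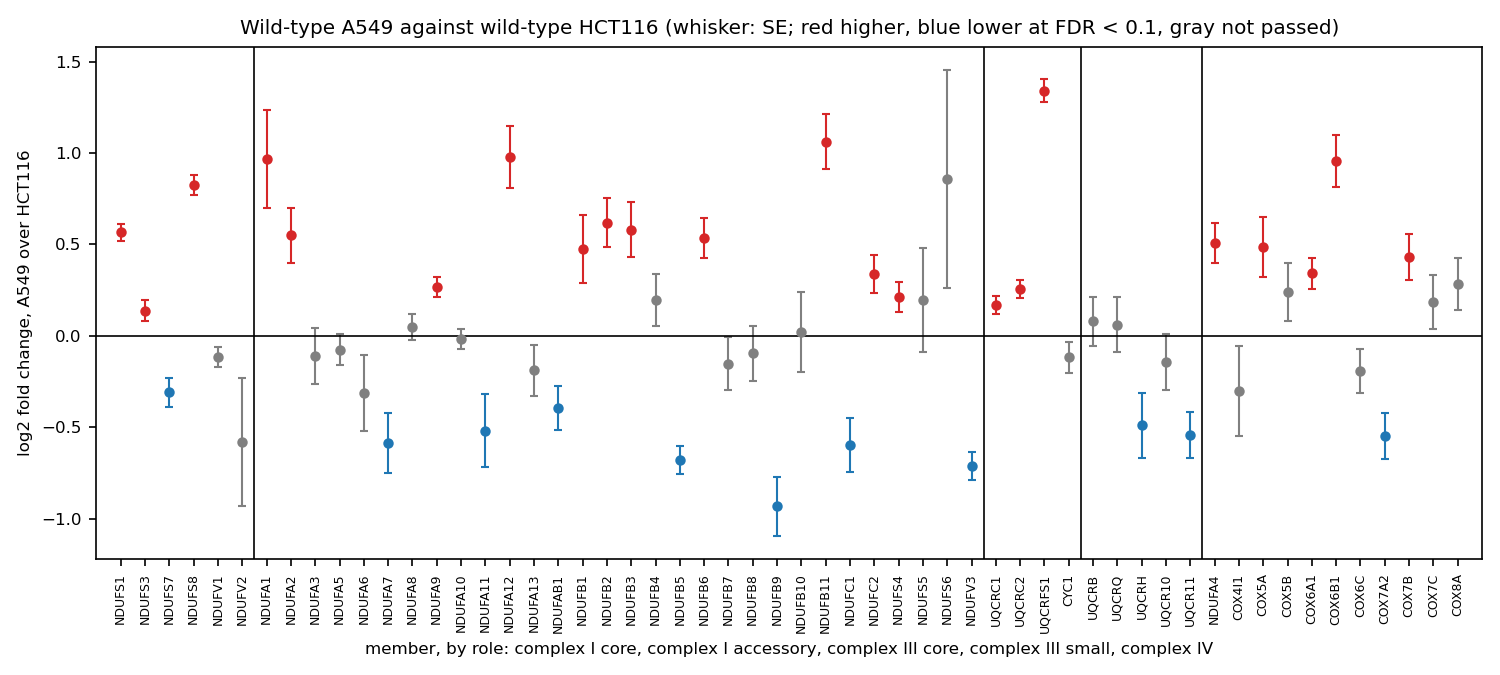
Log2 fold change of each member, A549 WT B over HCT116 WT B (points, with the SE as whiskers, n = 3 libraries each), ordered by role, with red for higher, blue for lower and gray for members that did not pass FDR under 0.1. UQCRFS1 is highest at 1.34 and NDUFB9 lowest at -0.93.

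Some of these counts share sequence or position with other genes. Of the members 31 have processed pseudogenes among the counted symbols, 105 in all, and for 11 members the summed pseudogene count exceeded 5% of the member's own in at least 1 library, among them NDUFB4 (up to 87.1%), NDUFA3 (up to 26.7%), NDUFV2 (up to 9.65%) and NDUFA8 (up to 6.14%). In the A549 MSTRG.4401.1 KO the 26 pseudogenes tested were higher in 5 (19.2%) and lower in none, against 21.3% of all genes higher and 22.4% lower. Exons of 21 members overlap a gene on the opposite strand and those of 18 a gene on the same strand, such as NDUFB11 with RBM10 and NDUFA13 with YJEFN3. How reads in such places were assigned is not given in the sources used here, so the values of these members are uncertain to that extent.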

How the data were processed

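RNA-seq counts of 24 libraries were analysed, from A549 or HCT116 cells, with 3 libraries in each of 8 groups. Per the labels, total RNA was depleted of rRNA with Ribo-Zero, made into libraries with a strand-marking NEBNext kit and sequenced on a NovaSeq6000. The submitters' processing notes name Trim Galore 0.6.6, FastQC 0.11.9, HISAT2 2.2.1 and hg38, and the study's methods name Samtools, StringTie and edgeR. The authors deposited raw read counts per gene symbol, 1 file per library. The annotation release, the strand setting and the step from StringTie to whole counts are not given in the sources used here.

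The 60641 symbols present in every library were used, and 3 that were not were left out. Each comparison was fitted over the libraries of its own groups (the interaction over its 4 groups) with edgeR 4.0.16 in R 4.3.3: genes were filtered with filterByExpr, libraries scaled by TMM, and tested with glmQLFit and glmQLFTest, with Benjamini-Hochberg adjustment over all genes tested. FDR under 0.1 called a gene, and the fold criterion, taken from the study's methods, added an absolute log2 fold change above 1. CPM are per library total, without TMM. Alternatives were DESeq2 1.42.0, upper-quartile scaling, other filters (none, and at least 10 counts in every library), FDR under 0.05, other libraries or controls in the fit and leaving out each library. The test was also run on simulated counts, with larger changes than most members showed, so that run does not bear on the calls of the members. Positions are from GENCODE 44 (GRCh38) and promoters from RefSeq (GRCh38.p14).

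The members and lists were chosen with earlier results of these data known. Named genes were, per comparison, the 3 highest and 3 lowest log2 fold changes among called members, all members past the fold criterion, NDUFV1, UQCRC2 and COX4I1 as references, and of the other lists the genes past the fold criterion (up to 5), PPARGC1A, NRF1 and TFAM. Of the other lists, genes are named only for the A549 KOs, and not all of those under this rule are reported here. Other members named with their CPM were chosen after their values were seen to show roles and overlaps, as were MT-CO1, CYCS and the background of short and of all protein-coding genes. In the lists, ATP5MJ, ATP5MK, UQCC5 and UQCC6 were not matched. Counts of at most 3 per library, 0.0293 to 0.116 CPM at these depths, were taken as the floor. It covers counting error only.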

Additional observations from a re-analysis of the deposited data

Results flagged for a closer look

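The effect of the MSTRG.4401.1 KO differed between the lines by a test of the difference itself. For 21 members (37.5%) the effect was more negative in A549 than in HCT116 (edgeR interaction, FDR under 0.1). The same call was made for 15.4% of all genes and 27.9% of protein-coding genes. The log2 difference was -1.30 for NDUFA8, -0.94 for UQCRC1 and -0.91 for UQCR10. In A549 the mitochondrially encoded genes, the proteasome and the ribosomal protein genes also moved, as given above, and their part in the difference was not tested. Groups of 3 libraries are too small for a search for single outlying values.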

How the results depend on the processing

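In the A549 MSTRG.4401.1 KO the 31 lower members became 18 at FDR under 0.05 and 16 with upper-quartile scaling, and the 2 past the fold criterion 1 and 0. Against the MSTRG.2513.6 KO, upper-quartile scaling gave 1 higher and 18 lower with 1 past the fold criterion, also 1 at FDR under 0.05. With that scaling 24.8% of all genes were higher and 13.6% lower. The fold criterion was met there by 4912 of 25161 genes, and by 3432 at FDR under 0.05. The interaction gave 13 negative members at FDR under 0.05, and 2 (DESeq2) or 3 (no filter) past the fold criterion. Under the label HCT116 MSTRG.2513.6 KO, members lower were 3 with DESeq2, 1 with upper-quartile scaling, 3 with at least 10 counts in every library, 7 in one fit of the line without S8 and S9 (2 past the fold criterion, median -0.35), 25 without S8 and S9 (median -0.32) and 1 with WT A as control (1 past the fold criterion). In the HCT116 MSTRG.4401.1 KO, higher members were 1 at FDR under 0.05, 7 with upper-quartile scaling, 1 without a filter, 4 with at least 10 counts, 0 in one fit of the line and 11 with WT A as control, which also gave 2 lower, 5 past the fold criterion and a median of 0.18; DESeq2 gave 1 lower. The MSTRG.34636.7 KO against WT B gave 10 higher and 21 lower, against 22.98% and 22.88% of all genes. It gave 4 past the fold criterion, which 4059 of 27971 genes met. WT A against WT B gave 1 higher at FDR under 0.05 and 13 lower in one fit of the line, against 3.60% and 9.20% of all genes. A549 against HCT116 gave 1 past the fold criterion with upper-quartile scaling, which 9988 of 27882 genes met. The cause of these moves was not tested. With TMM-scaled library sizes the ratio of summed CPM to WT B was 0.991 under the label HCT116 MSTRG.2513.6 KO and 1.01 for the HCT116 MSTRG.4401.1 KO. It was 1.05 for A549 over HCT116 and 0.653 for the A549 MSTRG.4401.1 KO over the A549 MSTRG.2513.6 KO.

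Leaving out 1 library at a time gave, in the A549 MSTRG.4401.1 KO, 12 to 35 lower and 0 to 2 past the fold criterion. Of all genes 17.4% were lower in the fit with 12 and 19.8% in that with 35. Against the MSTRG.2513.6 KO the ranges were 13 to 39 lower and 1 to 2 past the fold criterion, and in the interaction 12 to 41 negative and 1 to 4 past it. Of all genes 12.8% and 22.1% were lower at these ends, and 12.7% and 17.1% negative. Under the label HCT116 MSTRG.2513.6 KO the ranges were 0 to 24 higher, 0 to 12 lower and 0 to 5 past the fold criterion, the upper ends all without S11. In that fit 30.2% of all genes were higher and 32.4% lower. In the HCT116 MSTRG.4401.1 KO the ranges were 1 to 2 higher and 0 to 4 lower. Of all genes 5.60% were lower in the fit with 4, and 4.53% to 5.66% were higher over these fits. WT A against WT B gave 0 to 2 higher, where 2.81% to 7.09% of all genes were, and 3 to 21 lower. In the fits with 3 and 21, 3.79% and 9.17% of all genes were lower. WT A against WT B also gave 2 to 4 past the fold criterion and a median of -0.43 to -0.032. A549 against HCT116 gave 1 to 6 past the fold criterion. Each of these fits tested 25727 to 31588 genes. The fold criterion was met by 2960 to 4124 of them in the A549 MSTRG.4401.1 KO and 3299 to 5140 against the MSTRG.2513.6 KO. In the interaction 2870 to 3955 met it, and 0 to 10636 under the label HCT116 MSTRG.2513.6 KO. For WT A against WT B it was 1535 to 2191, and for A549 against HCT116 10129 to 10568.

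Groups share replicate numbers in 3 comparisons, but same-numbered libraries did not deviate together (r between -0.078 and 0.036), so the numbers were not taken as pairs. With the replicate number as a block, no member was called in the MSTRG.34636.7 KO (median 0.15, and each library correlated best with its own number, as a hint from the data), 2 were higher and 7 lower in WT A against WT B, and 20 higher and 10 lower in A549 against HCT116. Of all genes 0.305%, 4.10% and 29.3% were higher in these fits, and 0.326%, 5.74% and 29.8% lower. For low members such as NDUFS6 the counts limit the precision.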
